A study of Macaca mulatta with 252 samples.

Results

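SLC12A1, ANO3, SPON2 and EBF1 are 4 genes with more RNA in the magnocellular layers of the macaque lateral geniculate nucleus (LGN) than in its other divisions. They were selected by that measured difference in the LGN arrays described here, from 14133 genes that were represented by a probe set with a single gene symbol. Each gene is described by its single-symbol probe set with the highest mean level, over the 3 LGN divisions of each animal first and then over the hippocampus and the cortex. The probe sets are MmugDNA.28461.1.S1_at for SLC12A1, MmuSTS.949.1.S1_at for ANO3, MmugDNA.16895.1.S1_at for SPON2 and MmugDNA.35031.1.S1_at for EBF1. Because the LGN values chose the genes, the LGN differences are given as a description with no test, and tests are given only for the hippocampus and the cortex.

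RNA from pieces of adult rhesus macaque brain was amplified and measured on GeneChip Rhesus Macaque arrays, 1 array per piece. The experimental arrays fell into 57 region groups: 10 cortical areas divided by layer, the hippocampal fields CA1, CA2, CA3 and dentate gyrus (DG), and the magnocellular, parvocellular and koniocellular divisions of the LGN. The labels name no strain, treatment or exact age. LGN and hippocampal arrays came from 4 animals, males 018G and CR5C1 and females 98C096 and 99C018, with 3 LGN and 4 hippocampal arrays each, and these animals also gave 39, 46, 45 and 49 cortical arrays in that order. Male 01D150 gave 13 and female 99C039 gave 5 cortical arrays and none of the LGN. The cortex was sampled in visual areas V1, V2 and MT (middle temporal), in temporal area TE, in auditory (A1), somatosensory (S1) and motor (M1) cortex, and in the frontal areas DLPFC (dorsolateral prefrontal), OFC (orbitofrontal) and ACG (anterior cingulate). A further 27 control arrays entered no comparison.

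The LGN relays the output of the retina to V1. In primates its magnocellular layers hold large neurons that receive parasol ganglion cell input and project to V1 layer 4Ca, the parvocellular layers hold smaller neurons that receive midget ganglion cell input and project to layer 4Cb, and the koniocellular neurons lie between these layers and reach the upper cortical layers. SLC12A1 encodes the sodium, potassium and chloride cotransporter NKCC2, best known from the thick ascending limb of the kidney, where it takes up salt and is the target of loop diuretics. ANO3 encodes a brain-expressed anoctamin, a family of calcium-activated chloride channels and lipid scramblases, and variants in it are linked to dystonia. SPON2 encodes spondin 2 (mindin), a secreted matrix protein. EBF1 encodes early B cell factor 1, a transcription factor of B cell development that also acts in striatal neurons and pericytes.

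All levels are log2 of the array intensity, so that a difference of 1 is a 2-fold difference, and levels of different genes were not compared because probe sets differ in brightness. The median of all probe set means was 4.76, and a level near or under it is dim. Of the listed markers with a named probe set here, 2 of 3 thalamic and 3 of 5 cortical ones followed the tissue labels of the LGN and cortical arrays. TCF7L2, a transcription factor of thalamic neurons, was at 12.45 or more on every LGN array and at 11.46 or less on every cortical array, while SLC17A7, a glutamate transporter of cortical neurons, was at 5.21 or less in the LGN and at 6.31 or more in the cortex. RORA was higher in the LGN (8.54 in the magnocellular layers against a cortical mean of 6.29), and NEUROD6 (4.02 against 7.38) and FEZF2 (4.61 against 7.14) were lower. The other three did not follow the labels: thalamic PRKCD was at 6.56 in the magnocellular layers against 6.94 in the cortex, cortical CUX2 at 7.93 against 7.40, and cortical TBR1 at 10.82 against 10.89. Markers gave little check of the division labels: CAMK2A, named as a koniocellular marker, was dim in every structure (4.42 in the magnocellular, 4.47 in the parvocellular and 4.32 in the koniocellular layers). NEFH, a neurofilament subunit of large axons, had mean levels of 13.09, 12.64 and 12.73 in the same order and was not called. Poly-A control signals overlapped between the divisions, with 8.77 to 9.81 in the magnocellular, 8.92 to 9.94 in the parvocellular and 8.78 to 9.51 in the koniocellular arrays.

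SLC12A1 had the largest mean difference between LGN divisions of the 4 genes. Its magnocellular level was 8.16 in male 018G, 7.12 in female 98C096, 6.37 in female 99C018 and 6.33 in male CR5C1. The parvocellular level in the same animals was 4.09, 3.80, 3.33 and 3.56, and the koniocellular level was 4.91, 5.50, 5.27 and 3.71. Every magnocellular array lay above the other 8 LGN arrays, with a gap of 0.84 to the nearest. The parvocellular arrays were all under the median of probe sets, and in male CR5C1 the koniocellular array was as dim. The mean difference between magnocellular and parvocellular layers was 3.30 ± 0.56 (SD, n = 4 animals), which is given as no fold because the parvocellular level is dim, and that between magnocellular and koniocellular layers was 2.15 ± 0.97.

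ANO3 was higher in the magnocellular layers than in the other divisions in every animal. Its magnocellular level was 7.87 in 018G, 7.40 in 98C096, 7.89 in 99C018 and 7.67 in CR5C1. The koniocellular level was 5.86, 6.24, 6.53 and 5.69, and the parvocellular level was 5.35, 5.64, 5.78 and 4.84. The divisions did not overlap between the magnocellular arrays and the rest, with a gap of 0.87, and in each animal the order was magnocellular, koniocellular, parvocellular. The magnocellular layers exceeded the parvocellular layers by 2.31 ± 0.47 (SD, n = 4), 4.94-fold, and the koniocellular layers by 1.63 ± 0.43.

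SPON2 had its highest magnocellular level, 9.60, in 018G, against 8.62 in 98C096, 8.71 in 99C018 and 7.78 in CR5C1. The koniocellular level was 6.80, 7.49, 7.78 and 6.75, and the parvocellular level was 6.51, 6.39, 6.49 and 6.16. The magnocellular arrays lay above the other 8, but the gap was 0.003, between the magnocellular array of CR5C1 and the koniocellular array of 99C018. Within each animal the magnocellular level was the highest. The difference from the parvocellular layers was 2.29 ± 0.61 (SD, n = 4), 4.90-fold, and from the koniocellular layers 1.47 ± 0.89, of which 018G gave 2.80 and the other animals 0.93 to 1.13.

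EBF1 was at 7.85 in 018G, 7.80 in 98C096, 8.18 in 99C018 and 7.98 in CR5C1 in the magnocellular layers, an SD of 0.17. Its koniocellular level varied more, with 6.09, 6.90, 7.81 and 6.09, and its parvocellular level was 6.06, 6.36, 6.12 and 5.76. The koniocellular array of 99C018 was level with the lowest magnocellular array, so the divisions overlapped for this gene. In 018G the koniocellular level was close to the parvocellular level. The magnocellular layers exceeded the parvocellular layers by 1.88 ± 0.34 (SD, n = 4), 3.68-fold, and the koniocellular layers by 1.23 ± 0.72.

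**Figure D1:**
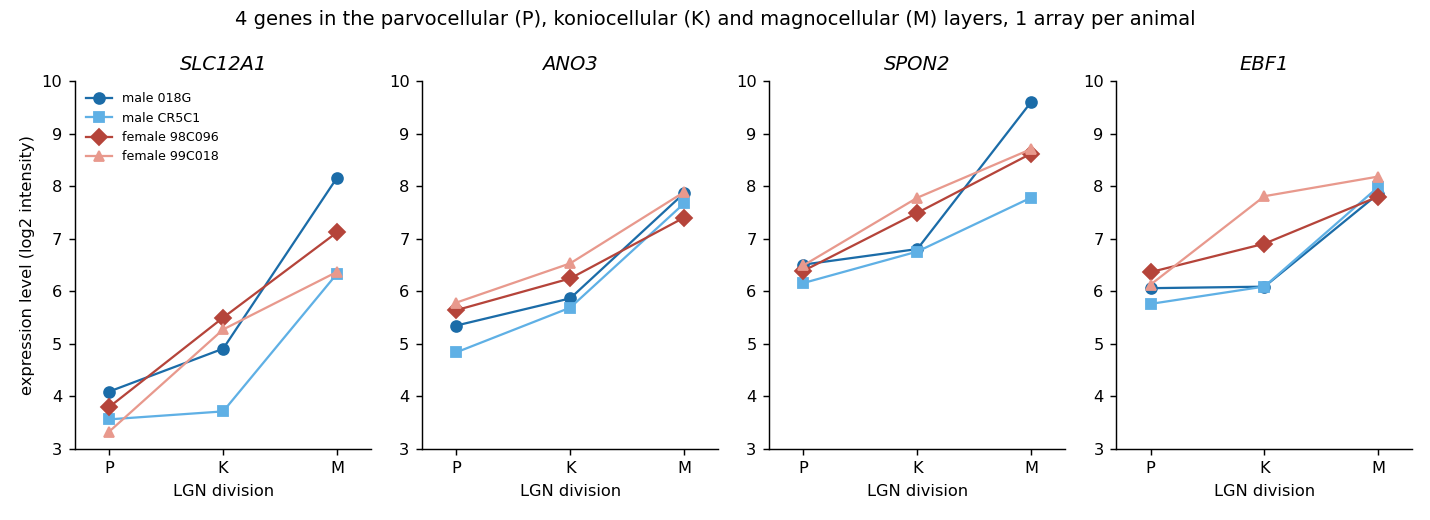
Level (log2 intensity, vertical axis) of each gene in the parvocellular (P), koniocellular (K) and magnocellular (M) layers, with 1 line per animal. In all 4 panels each animal's line ends highest at M; the koniocellular points are spread most for SLC12A1 (3.71 to 5.50) and EBF1 (6.09 to 7.81).

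Among 10379 genes fitted in the LGN, calls needed both a log2 difference of 1 or more and a Benjamini-Hochberg adjusted p under 0.05. In the comparison of magnocellular with parvocellular layers 31 genes were called, 15 of them higher in the magnocellular layers (0.145% of genes), and the 4 genes stood at ranks 1, 3, 4 and 6 by size of difference. Against the koniocellular layers 8 genes were called higher (0.0771%), and the 4 genes stood at ranks 2, 4, 5 and 8. In the comparison of koniocellular with parvocellular layers 9 genes were called higher (0.0867%). All 4 genes were higher in the koniocellular than in the parvocellular array of every animal, but none of them was called. The mean differences were 1.15 ± 0.82 for SLC12A1, 0.82 ± 0.46 for SPON2, 0.68 ± 0.15 for ANO3 and 0.65 ± 0.72 for EBF1 (SD, n = 4). The lowest in an animal were 0.15 for SLC12A1 and 0.03 for EBF1. The share of all genes higher in every animal was not counted. These 3 comparisons share arrays, and without 99C018 no gene was called in the last (limma; 683 at an unadjusted p under 0.05), while 17 were without CR5C1 and 16 without 018G. The magnocellular arrays lay wholly above the other 8 arrays for 53 genes (0.511%), and these included SLC12A1, ANO3 and SPON2. These ranks and counts follow from the way the genes were chosen. In tissue pieces such as these, fewer cells of a type and less RNA per cell cannot be told apart.

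SLC12A1 and EBF1 each had a second single-symbol probe set, and these did not repeat the values of the first. The second SLC12A1 probe set was at 3.36 to 3.87 on all 12 LGN arrays, above the median of probe sets on 1 experimental array, and its difference between magnocellular and parvocellular layers was -0.13 ± 0.32 (SD, n = 4). The second EBF1 probe set was at 5.79, 6.32 and 5.59 in the magnocellular layers of 98C096, 99C018 and CR5C1, above their parvocellular levels of 5.06, 5.27 and 4.97. In 018G it went the other way, 4.52 in the magnocellular and 5.06 in the parvocellular layers, while the first probe set gave 7.85 and 6.06. Over the 4 animals its difference was 0.46 ± 0.69. With all single-symbol probe sets of a gene averaged, the difference was 1.59 for SLC12A1 and 1.17 for EBF1, in place of 3.30 and 1.88. Which transcripts each probe set detects was not given in the sources used here. ANO3 and SPON2 had 1 such probe set each.

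**Figure D2:**
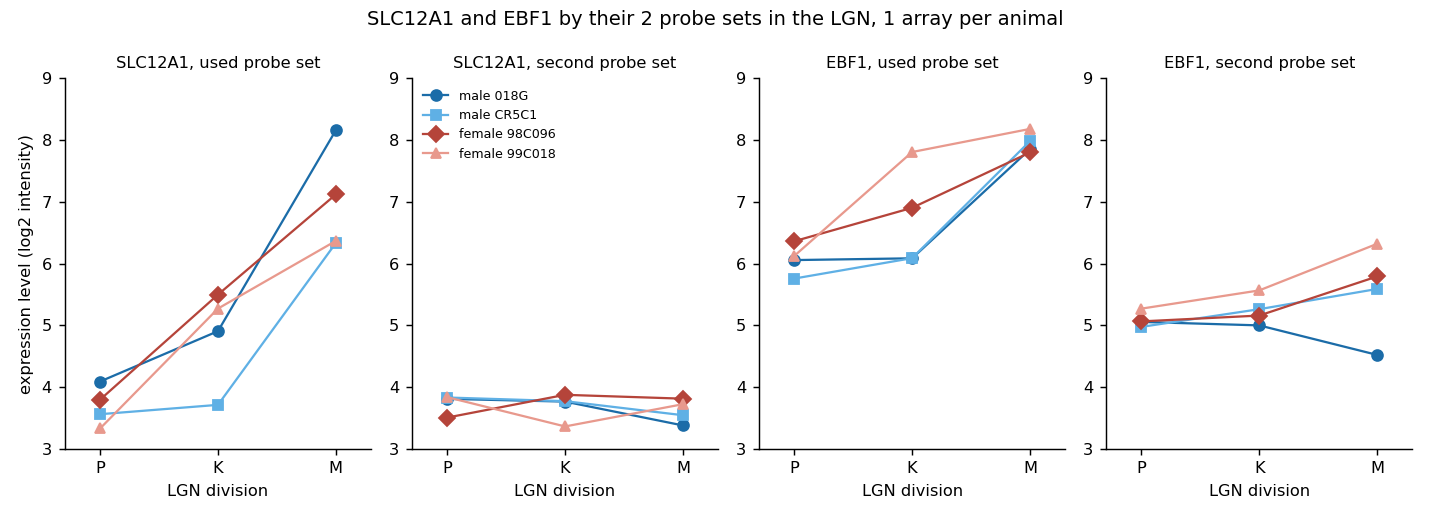
Level (log2 intensity) of the 2 single-symbol probe sets of SLC12A1 and of EBF1 in the parvocellular (P), koniocellular (K) and magnocellular (M) layers, 1 line per animal. The second SLC12A1 probe set stays between 3.36 and 3.87, and the second EBF1 probe set is highest at M in 3 animals and not in male 018G.

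The related genes of each family were not among the few genes called in the LGN, where the 3 comparisons called 31, 22 and 9 of 10379 genes (0.299%, 0.212% and 0.0867%), so that a count of 0 in lists of this size says nothing about them. Of 5 other anoctamins fitted, 10 cation-chloride cotransporters and their kinases, 2 renal partners of SLC12A1, 5 R-spondins and thrombospondins and 3 EBF-related factors, none was called in any of the 3 LGN comparisons by limma. Over all 17 lists, which also held markers of neurons, glia and vessels, 0 of 63 fitted genes were called in each comparison, while 14, 17 and 12 had an unadjusted p under 0.05 for magnocellular against parvocellular, magnocellular against koniocellular and koniocellular against parvocellular layers. These are 22.2%, 27.0% and 19.0% of the listed genes, beside 10.4%, 14.0% and 8.35% of all genes fitted. Among the relatives, SLC12A5, the neuronal chloride exporter KCC2, had means of 11.08, 10.67 and 10.78 in the magnocellular, parvocellular and koniocellular layers. The renal genes KCNJ1, which recycles potassium beside NKCC2, and UMOD, which encodes the urinary protein uromodulin, were dim in the LGN, at 4.16 or less and 4.52 or less. Of the other listed renal partners, BSND ran from 4.42 to 5.09 on LGN arrays, near the median of probe sets. KCNJ16 had means of 5.09, 4.59 and 4.48 in the magnocellular, parvocellular and koniocellular layers. KCNJ10 and ATP1B1 were bright, at 9.73 or more and 13.35 or more on LGN arrays. ZNF521, a zinc finger partner of EBF proteins, had means of 9.17, 8.50 and 8.92. The R-spondin RSPO3 went the other way, with means of 6.81, 7.70 and 7.53 in the magnocellular, parvocellular and koniocellular layers. The median difference between magnocellular and parvocellular layers was -0.01 for the anoctamins, 0.09 for the cotransporters and 0.12 for the EBF-related genes, against 0.01 over all genes.

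Some cell type markers differed in summed level between the divisions, though none was called. The summed intensity of the 4 astrocyte markers (log2 of the sum) was 12.80 to 12.96 in the magnocellular, 12.41 to 12.71 in the parvocellular and 12.91 to 13.35 in the koniocellular arrays. That of the 3 myelin markers was 12.94 to 13.23, 12.83 to 13.19 and 13.43 to 13.74 in the same order, and that of the 2 large-neuron markers NEFH and SPP1 was 13.38 to 13.99, 13.10 to 13.23 and 12.83 to 13.60. The 5 inhibitory neuron markers summed to 13.13 to 13.63, 13.08 to 13.29 and 12.74 to 13.24. Of these, GAD1 had means of 11.73, 11.16 and 10.78, while GAD2 went the other way with 6.56, 6.61 and 6.79. Pericyte and smooth muscle markers overlapped in all divisions, with 8.23 to 8.49, 8.26 to 8.48 and 8.30 to 8.56. The part of these markers in the values of the 4 genes was not tested.

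Over all 57 region groups the 4 genes placed the magnocellular layers very differently. For SLC12A1 they ranked first with a mean of 6.996 ± 0.86 (SD, n = 4), and no other group overlapped them; the next group was layer 2 of DLPFC at 5.52 ± 0.17. EBF1 also ranked them first, at 7.96 ± 0.17, with the koniocellular layers next at 6.72 ± 0.82 and overlapping, and then S1 layer 5 at 6.18 ± 0.28. SPON2 ranked them 12th of 57 at 8.68 ± 0.74, with 39 groups overlapping, and its highest group was ACG layer 3 at 9.53 ± 0.21. For ANO3 the magnocellular layers ranked 55th at 7.71 ± 0.23, below every array of 54 groups and above only the other LGN divisions. The share of all genes with magnocellular arrays so separated from other groups was not counted, and these arrays were among those that chose the genes. By the second SLC12A1 probe set the magnocellular level differed from the cortical mean by -0.14 ± 0.23 (SD, n = 4). Neighbouring groups overlapped in 55 of 56 steps of the order for SLC12A1, 54 for ANO3 and 56 each for SPON2 and EBF1. With so few arrays per group, sorted by mean, such overlap is common. The rank of a group against its neighbours was therefore not read, and the overlap says nothing about groups far apart in the order.

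Within animals, the magnocellular level of SLC12A1 exceeded the mean cortical level by 3.19 ± 0.78 (SD, n = 4) and the mean hippocampal level by 3.75 ± 0.84. The parvocellular level of SLC12A1 was close to the cortical mean, with a difference of -0.11 ± 0.27. For EBF1 the magnocellular excess was 2.52 ± 0.20 over cortex and 3.33 ± 0.32 over hippocampus, and for SPON2 it was 0.85 ± 0.60 and 1.63 ± 0.70. ANO3 was lower in the magnocellular layers than in cortex by 2.93 ± 0.28 and lower than in hippocampus by 3.70 ± 0.28, and its parvocellular level was 5.24 ± 0.50 under cortex, 37.7-fold. The 3 LGN divisions, between which ANO3 differed, thus held its lowest levels of all 57 groups. LGN and hippocampal arrays belonged to the set of arrays with a wide spread of hybridisation controls, as did DLPFC, MT, OFC and V2, and the other 6 areas to a narrow set; the part of this in the differences from cortex was not tested.

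**Figure D3:**
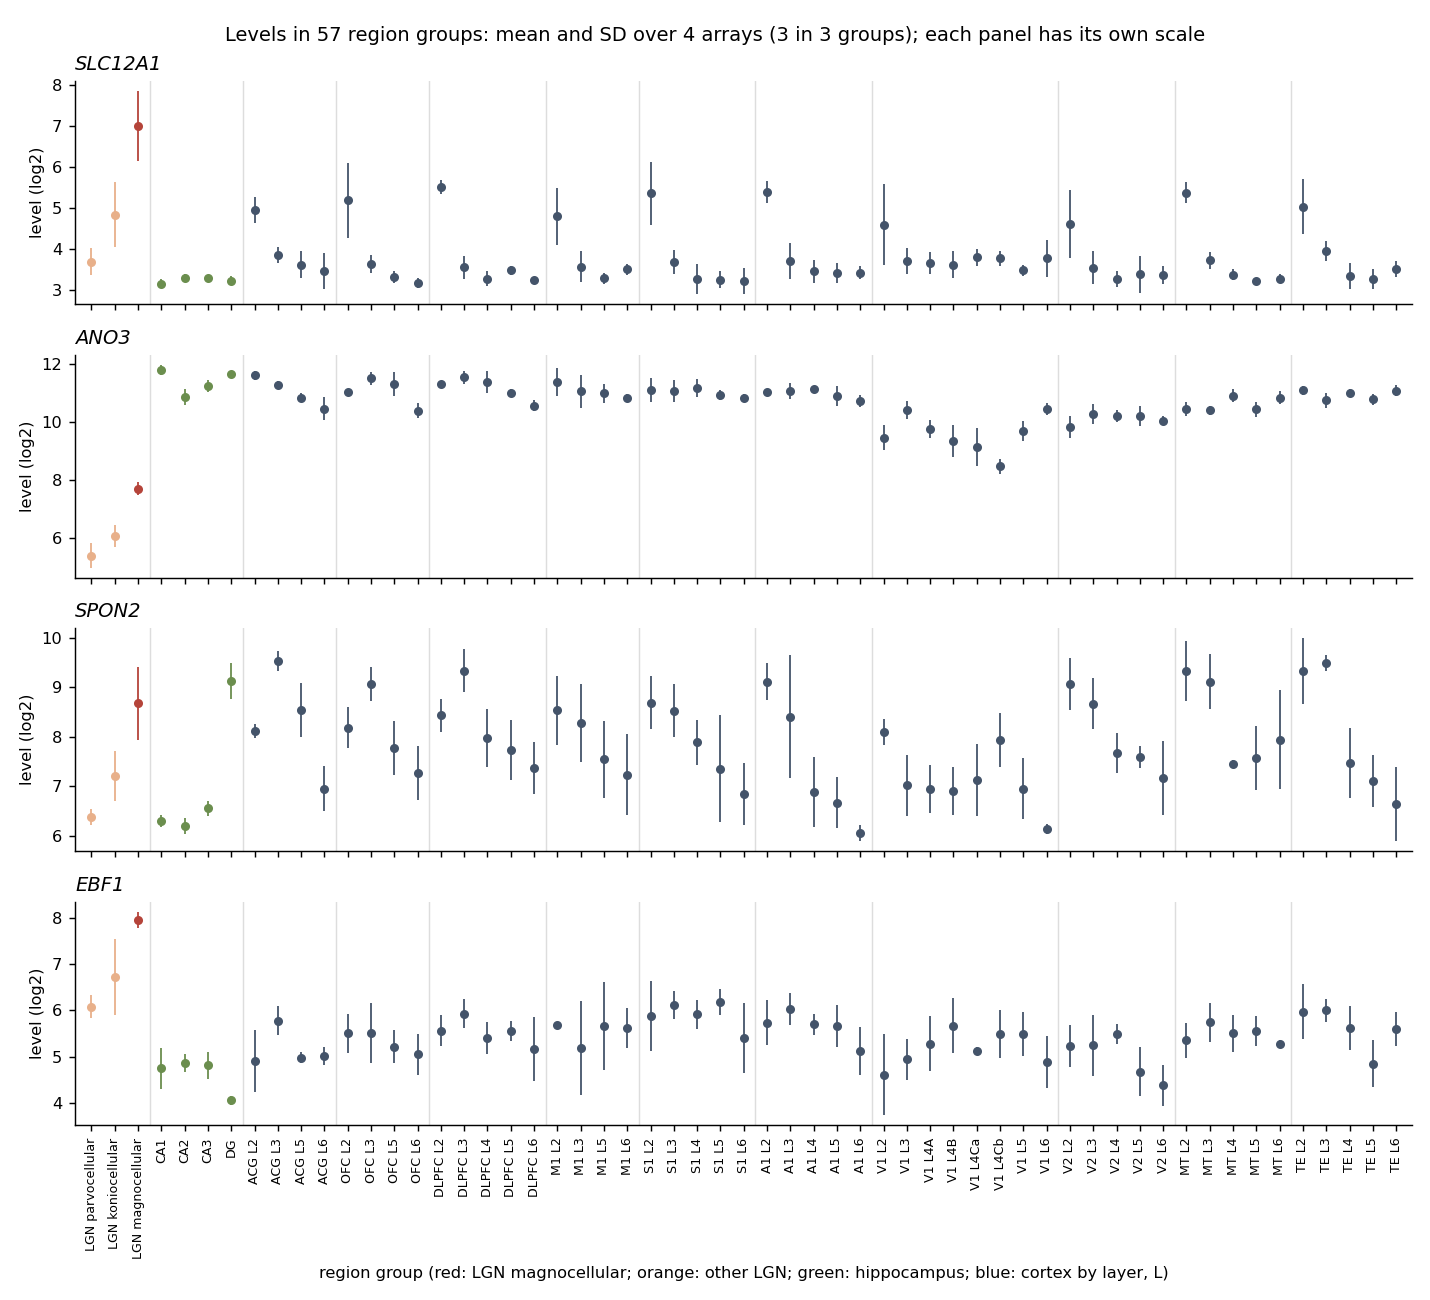
Mean level and SD (log2 intensity) of each gene in 57 region groups, with LGN magnocellular in red, other LGN divisions in orange, hippocampus in green and cortical layers in blue. The red point is highest for SLC12A1 (6.996) and EBF1 (7.96), among the upper groups for SPON2 (8.68) and far under cortex and hippocampus for ANO3 (7.71).

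In the cortex, SLC12A1 was a layer 2 gene. Layer 2 had the highest mean of all layers in 10 of 10 areas, and 36 of 39 layer 2 arrays lay above every other array of their area. The share of all genes with such a separation was not counted. The layer 2 arrays ran from 3.15 to 6.06, and the other 158 cortical arrays reached 4.35 at most. Outside the LGN, the level passed the median of probe sets on 30 arrays, all of layer 2. Since its cortical mean was under the filter on low values, SLC12A1 was tested in a fit of all 14133 genes. There, layer 2 exceeded the mean of layers 3 to 6 by 1.81 ± 0.07 (SE, limma adjusted p = 7.68e-13, 4 of 4 animals, from 1.58 to 2.13). The contrast was chosen after the layer means had been seen. It called 2.05% of genes, and 4799 of 14133 passed the adjusted p. This layer fit averaged DLPFC, S1, A1, V2, MT and TE, the areas with all of layers 2 to 6. In the areas left out, layer 2 exceeded the mean of the others by 0.91 in V1, 1.30 in ACG, 1.35 in M1 and 1.81 in OFC. The range over layers 2 to 6 was 1.92 (moderated F, adjusted p = 1.06e-11; 5.18% of genes called). Deep layers 5 and 6 were lower than layers 2 and 3 by 1.05 ± 0.07 in 5 of 5 animals (adjusted p = 7.40e-06; 1.61% called), and without male 01D150 the difference was 0.98, just under the limit of 1.

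Of the layer 2 arrays of SLC12A1, 9 in 7 of the areas were not above the median of probe sets. The lowest outside V1 and V2 were at 3.92 in OFC, 4.14 in M1, 4.15 in TE and 4.22 in S1. In V1 layer 2, SLC12A1 was at 5.33 in 98C096, 5.12 in CR5C1 and 4.78 in 99C018, but at 3.15 in 018G, the male with the highest magnocellular level. In V2 layer 2 the array of 99C018 was at 3.40, against 4.61 ± 0.83 (SD) over the 4 arrays. In DLPFC, A1 and MT all 4 layer 2 arrays were at 5.17 or more. The second SLC12A1 probe set did not differ between layer 2 and the others (-0.01 ± 0.09, SD, n = 4), and with both probe sets averaged the layer 2 difference was 0.90.

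SPON2 was higher in both upper layers. Layer 3 was highest in 4 areas and layer 2 in 6, and layer 6 was lowest in 9 of 10 areas, the exception being MT. In A1 the mean level went from 9.12 ± 0.38 (SD, n = 4) in layer 2 to 6.05 ± 0.16 in layer 6, and in ACG from 9.53 in layer 3 to 6.95 in layer 6. The layer fit again left out V1, ACG, OFC and M1. Centred on each animal and area there, layer 2 was at 1.03 ± 0.23, layer 3 at 1.03 ± 0.19 and layer 4 at -0.37 ± 0.11 (SD, n = 4). Layer 5 was at -0.65 ± 0.18 and layer 6 at -1.04 ± 0.32 (SD, n = 4). In that fit the range over layers was 2.07 (limma F, adjusted p = 4.18e-10, 6.61% of genes called). Layer 2 exceeded the other layers by 1.28 ± 0.11 (SE, limma adjusted p = 3.07e-08, 2.71% called). With all 10 areas entered, deep layers were lower than upper layers by 1.51 ± 0.08 (SE, limma adjusted p = 1.46e-06, 5 of 5 animals, 2.13% called). Layer 4, the layer of thalamic input, was 0.47 ± 0.11 (SE) under the other layers of the layer fit. This passed the limma adjusted p (0.00461), as did 3001 of 10284 genes, and not the limit of 1. In that contrast 0.778% of genes were called and none of the 4 genes was.

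ANO3 and EBF1 had no called difference between layers 2 to 6. That fit averaged DLPFC, S1, A1, V2, MT and TE, and left out V1, ACG, OFC and M1. The comparison of deep with upper layers took in all 10 areas and also called neither gene. ANO3 had a range of 0.24 over the layers (adjusted p = 0.158), and its deep layers were lower by 0.27 ± 0.07 (adjusted p = 0.0148). EBF1 had a range of 0.69 (adjusted p = 6.52e-05) with layer 3 at 0.32 ± 0.15 and layer 6 at -0.37 ± 0.03 (SD, n = 4), and its deep layers were lower by 0.31 ± 0.06 (adjusted p = 0.00453). None of these reached a difference of 1. The order of layers was not the same in every area. In single areas the span could be wider, as in ACG and OFC, which were outside the layer fit. In ACG the ANO3 means ran from 11.63 in layer 2 to 10.47 in layer 6. The OFC means ran from 11.52 in layer 3 to 10.41 in layer 6. Among the listed genes the 3 fitted myelin markers were all called higher in deep than upper layers, MBP by 1.83 ± 0.12, UGT8 by 2.05 ± 0.13 and ANLN by 2.79 ± 0.12, opposite in direction to SLC12A1 and SPON2. CUX2, an upper-layer neuron factor, was lower in deep layers by 5.05 ± 0.06. Their part in the layer values of SLC12A1 and SPON2 was not tested.

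**Figure D4:**
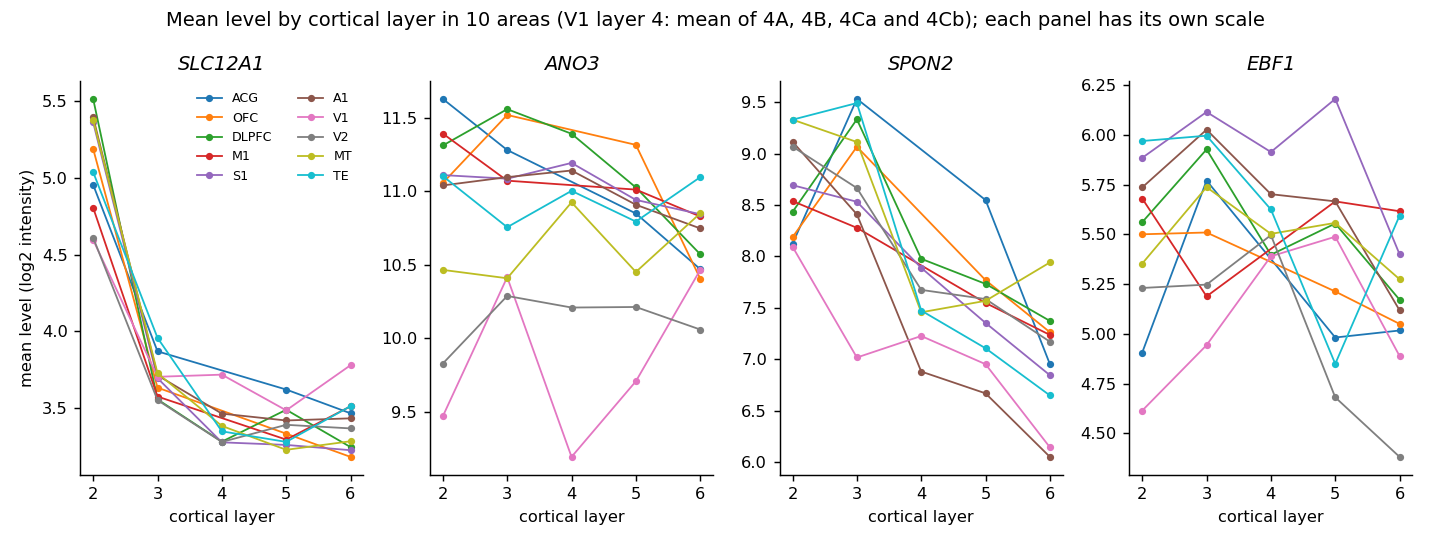
Mean level (log2 intensity) of each gene by cortical layer, 1 line per area, each panel with its own scale; ACG, OFC and M1 have no layer 4 array and their lines run from layer 3 to layer 5. SLC12A1 peaks in layer 2 in every area, and SPON2 is highest in layer 2 or 3 in every area and lowest in layer 6 in 9 of 10.

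In the hippocampus SPON2 was higher in the dentate gyrus than in the CA fields, where 557 of 10282 genes were called higher. The DG level was 8.86 in 018G, 9.40 in 98C096, 9.47 in 99C018 and 8.76 in CR5C1, while the CA fields ran from 5.96 to 6.78 over 12 arrays. DG and CA arrays did not overlap, though the share of all genes without such overlap was not counted. DG exceeded the mean of the CA fields by 2.77 ± 0.09 (SE, 6.84-fold, limma adjusted p = 1.40e-11, 4 of 4 animals). That comparison called 10.2% of genes in either direction. The range over the 4 fields was 2.93 (adjusted p = 1.67e-10; 19.1% called). DG is densely packed with granule cells. The 3 fitted myelin markers were lower in DG (MBP by 2.14 ± 0.16). Of the 4 fitted astrocyte markers, ALDH1L1 was called higher in DG by 2.74 ± 0.14 and GFAP by 1.05 ± 0.16, SLC1A3 was called lower by 1.14 ± 0.11, and SLC1A2 differed by -0.95 ± 0.10 without a call, for a list median of 0.05. The part of these markers was not tested.

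The other genes had no called difference among hippocampal fields. ANO3 was at 11.63 to 12.02 in CA1, 10.47 to 11.13 in CA2, 11.05 to 11.47 in CA3 and 11.54 to 11.79 in DG, a range of means of 0.94 (adjusted p = 7.36e-05) that fell short of 1; without 98C096 it was 1.04 and passed. EBF1 and SLC12A1 were under the filter on low values and were tested in the fit of all genes. EBF1 was lower in DG, at 3.92 to 4.12, than in the CA fields, at 4.35 to 5.27, by 0.75 ± 0.12 (SE, limma adjusted p = 1.55e-04), short of 1. Its DG and CA arrays did not overlap, but the share of all genes without overlap was not counted. In this fit 7007 of 14133 genes passed the adjusted p for DG against the CA fields. SLC12A1 was at 3.01 to 3.38 on all 16 hippocampal arrays, and its DG difference was -0.02 ± 0.08 (adjusted p = 0.885).

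Between the structures, 6.30% of genes were called and none of the 4 genes was. Hippocampus exceeded cortex for ANO3 by 0.77 ± 0.05 (adjusted p = 5.92e-06), while EBF1 was lower in hippocampus by 0.81 ± 0.07 (adjusted p = 2.51e-05), SPON2 by 0.78 ± 0.09 (adjusted p = 1.42e-04) and, in the fit of all genes, SLC12A1 by 0.56 ± 0.05 (adjusted p = 6.19e-05). Each direction held in 4 of 4 animals. All 4 passed the adjusted p and missed the limit of 1. Passing the adjusted p was common here, with 5816 of 10311 genes, and 6776 of 14133 in the fit of all genes.

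V1 offers a matched pair of layers, since 4Ca receives the magnocellular axons and 4Cb the parvocellular axons. Here 1.37% of genes were called (140 genes, 58 without 99C018 and 70 without 98C096), and none of the 4 genes was; at an unadjusted p under 0.05 in limma, ANO3 and SPON2 passed, as did 2001 of 10188 genes (19.6%). SLC12A1 was dim in both, at 3.62 to 3.98 in 4Ca and 3.59 to 3.97 in 4Cb, with a difference of 0.03 ± 0.31 (SE; adjusted p = 0.977). SPON2 was lower in 4Ca in 4 of 4 animals, the opposite order to the LGN divisions: 6.78 in 018G, 6.75 in 98C096, 8.21 in 99C018 and 6.74 in CR5C1, against 8.19, 7.64, 8.57 and 7.35 in 4Cb. That difference, -0.82 ± 0.30, had an adjusted p of 0.128. ANO3 was higher in 4Ca in 3 of 4 animals, by 0.67 ± 0.24 (adjusted p = 0.113), with 10.02, 8.68, 8.62 and 9.33 in 4Ca and 8.69, 8.13, 8.66 and 8.48 in 4Cb. EBF1 was lower in 4Ca in 3 of 4 animals, by 0.37 ± 0.39 (adjusted p = 0.629). The median difference of all genes was -0.15.

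Across the 8 V1 layers, ANO3 and SPON2 were among the 14.7% of genes called. ANO3 had its lowest cortical mean in layer 4Cb. Layer 4Ca was not low in every animal: in 018G it was at 10.02, above layers 2, 4B and 5 at 9.92, 9.84 and 9.61. The mean of 4Ca and 4Cb was below the other V1 layers by 1.04 ± 0.14 (SE, limma adjusted p = 3.28e-06, 4 of 4 animals, 1.90% of genes called). Without 98C096 or without 99C018 the difference was 0.98 and 0.99, under the limit. ANO3 means ran from 10.46 in layer 6 to 8.49 in 4Cb, a range of 1.98 (adjusted p = 3.65e-06). SPON2 ran from 8.09 in layer 2 to 6.14 in layer 6, a range of 1.95 (adjusted p = 2.85e-04), with a second high point of 7.94 in 4Cb; its difference between 4C and the other layers was 0.52 ± 0.17 (adjusted p = 0.0459). EBF1 had a range of 1.06 (adjusted p = 0.275). SLC12A1 had a range of 1.11 (limma F, adjusted p = 0.184) and was not called. Without 018G, whose layer 2 array was low, the range was 1.56 (limma F, adjusted p = 0.00130). That array was not among the values flagged as outlying below, so the result with all 4 animals is the one to read. Among genes above the filter, 1377 of 10183 were called without 018G.

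**Figure D5:**
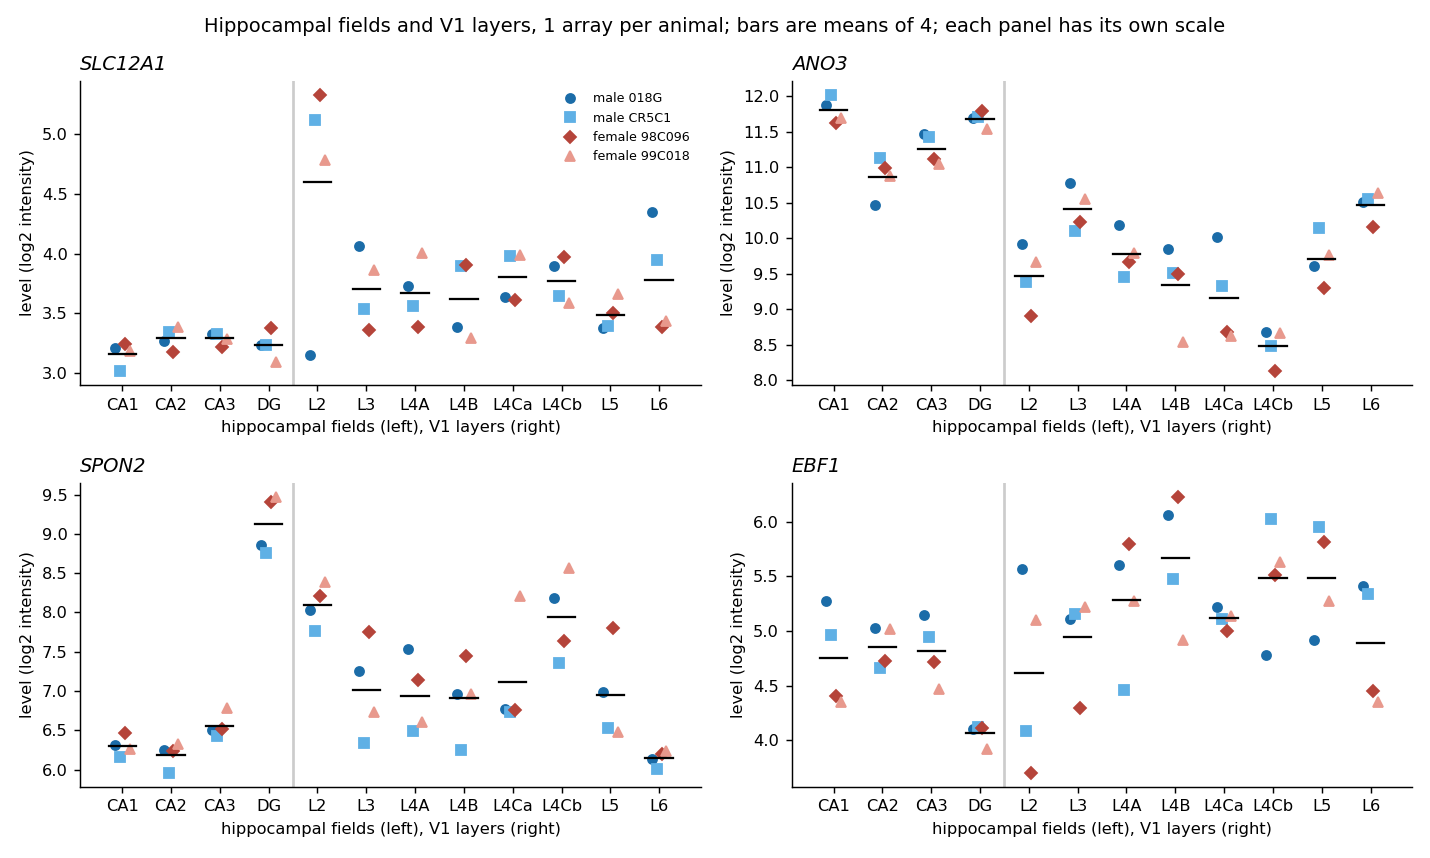
Level (log2 intensity) in the hippocampal fields and V1 layers, 1 point per animal and a bar at the mean of 4; each panel has its own scale. SPON2 is at 8.76 or more in DG and 6.78 or less in the CA fields, ANO3 is lowest in V1 layer 4Cb, and 1 SLC12A1 point of V1 layer 2 (018G, 3.15) lies apart from the other animals.

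Among the 10 cortical areas, ANO3, SPON2 and EBF1 were called and SLC12A1 was not, against 9.20% of genes. Means of layers 2, 3, 5 and 6 were compared. ANO3 was highest in M1 (11.15 ± 0.34, SD, n = 3) and lowest in V1 (10.01 ± 0.25, n = 4) and V2 (10.10 ± 0.15), a range of fitted means of 1.10 (adjusted p = 3.62e-09). SPON2 was highest in MT (8.49 ± 0.66) and lowest in V1 (7.05 ± 0.34), a range of 1.23 (adjusted p = 3.47e-07). EBF1 was highest in S1 (5.90 ± 0.26) and lowest in V2 (4.88 ± 0.31) and V1 (4.98 ± 0.30), a range of 1.01 (adjusted p = 1.41e-05). SLC12A1 had a range of 0.37 (adjusted p = 0.542). The calls sat near the limit: without 98C096 the ANO3 range was 0.96, and without 99C018 the SPON2 range was 0.99 and the EBF1 range 0.96. The areas also differed in poly-A control signal, a spiked-in RNA read on each array, with means of 9.99 in V1 and 9.83 in V2 while the remaining areas had means of 8.47 to 9.33. With that signal as a covariate the ranges were 1.16 for ANO3, 1.07 for SPON2 and 1.06 for EBF1, and each stayed called.

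V1 set against the mean of the other areas called 1.20% of genes. SPON2 was lower in V1 by 1.00 ± 0.10 (adjusted p = 7.42e-09), which just passed; within the areas of the same control set as V1 it was lower by 0.89, and without 99C018 by 0.81. ANO3 was lower in V1 by 0.86 ± 0.09 (adjusted p = 1.06e-08), just short of the limit, and within the control set of V1 by 1.01, just past it. EBF1 was lower by 0.52 ± 0.12 (adjusted p = 7.11e-04), and SLC12A1 differed by -0.01 ± 0.10. With poly-A signal as a covariate SPON2 differed by -0.86, ANO3 by -0.92 and EBF1 by -0.57 (adjusted p = 0.0600 for EBF1), so the SPON2 call was lost. Each area lay wholly in the narrow or in the wide control set. For areas of unlike sets, a difference between areas therefore cannot be told apart from a difference between sets. With the control set as a block, 909 genes were called over the areas, against 946 in the main fit. The area ranges of ANO3, SPON2 and EBF1 in that fit are not given here.

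The genes most like each of the 4 were named by Pearson's r over the 57 group means, among 9633 genes (9634 for SLC12A1) above the median of probe sets. For SLC12A1 these were PFKFB3 (r = 0.719), a regulator of glycolysis, then THSD7A (0.712), GTF2IRD1, ASIC4 and IMMP2L; without the LGN groups THSD7A was at 0.850. For ANO3 they were MFSD4A (0.895), MRTFB, CYRIA, SERPINA5 and ENC1 (0.883), whose likeness was lower over the 54 groups outside the LGN, at 0.635 to 0.764. For SPON2 they were FREM3 (0.754), which encodes a matrix protein, FCN3, LPAR6, HNMT and GALNT13. For EBF1 they were SLC25A18 (0.751), a mitochondrial glutamate carrier, SLC25A33, CYYR1, LUM (0.745), a matrix proteoglycan of fibroblasts, and GMNN. None of the 4 genes appeared in the list of another. SLC12A1 could not appear in one, because its mean of 3.84 was under the median of probe sets and it was not searched. Over the 54 groups outside the LGN the 4 genes had pairwise r from 0.04 (SLC12A1 with ANO3) to 0.52 (SLC12A1 with SPON2). The groups share animals and array sets, so these r values are descriptions.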

How the data were processed

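Amplified RNA was hybridised to GeneChip Rhesus Macaque arrays. The authors deposited 1 log10 intensity per probe set and array; per the file headers, they ran RMA within each amplification batch and then scaled each probe set on common whole brain controls; which array belonged to which of the batches is not given in the sources used here. Here the values were multiplied by 3.32 to give log2. Genes came from probe sets with a single symbol in GEO's platform annotation (24969 of 52865 probe sets, with 361 holding several symbols and 27535 none), the one with the highest mean per gene.

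Comparisons were fitted with limma 3.58.1 in R 4.3.3 (lmFit, eBayes) over all genes whose mean exceeded the median of probe set means, with the animal as a block, since arrays of one animal are paired: in the LGN, deviations from the group means correlated with a median of 0.426 within animals (lowest 0.151, 12 pairs) and -0.119 between animals. Calls needed a Benjamini-Hochberg adjusted p under 0.05 and a log2 change, or for F a range of fitted means, of at least 1. A gene under the filter was tested in a fit without it. Each animal counted once per layer or area. The scripts were tested on simulated data.

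The named genes were the 4 genes, their 5 nearest genes by Pearson's r and called genes of 17 lists; other list genes and relatives were named after their values were seen. The 4 genes and the lists were chosen with earlier results of these data known, and the layer 2 contrast was added after the layer means were seen. Control sets were split by the spread of cre hybridisation controls. Alternatives were the normalization, the filter, the probe set, the block, poly-A controls as a covariate, control sets, the pair of layers or divisions alone and leaving out each animal. Control arrays entered no comparison. Arrays measure relative levels, and the number of animals limits the precision. No sequence was used here.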

Additional observations from a re-analysis of the deposited data

Results flagged for a closer look

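Among 216 combinations of gene and region group with 4 arrays, 10 held 1 array far from the other 3 by Dixon's ratio; chance alone would give about 1 in 20. Female 99C018 accounted for 7 of them. In this animal ANO3 was at 11.21 in A1 layer 2 (the others at 10.97 to 10.99) and at 10.02 in OFC layer 6 (10.51 to 10.57). SPON2 was at 8.21 in V1 layer 4Ca (6.74 to 6.78) and at 7.92 in V2 layer 5 (7.46 to 7.49). EBF1 was at 5.46 in DLPFC layer 3 (6.04 to 6.12), at 3.92 in DG (4.10 to 4.12) and at 4.25 in M1 layer 5 (6.00 to 6.29).

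The other 3 were all EBF1 levels. Male CR5C1 was at 6.61 in S1 layer 5 (6.01 to 6.07) and at 4.91 in TE layer 4 (5.805 to 5.908), and female 98C096 was at 4.29 in V1 layer 3 (5.11 to 5.22). No LGN array and no SLC12A1 level was among the 10.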

How the results depend on the processing

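Without the animal as a replicate block, the genes called fell to 8 for magnocellular against parvocellular layers, 1 for magnocellular against koniocellular and 0 for koniocellular against parvocellular (limma; 531 at an unadjusted p under 0.05), from 31, 22 and 9; the block changed no call of the 4 genes outside the LGN. With all probe sets of a gene averaged, genes called were 19 and 10 in the first and second of these, 696 for DG against CA fields (from 1053), 83 for 4Ca against 4Cb (140), 426 for hippocampus against cortex (650), 53 for layer 4 (80), 139 for deep against upper layers (219), 539 for areas (946) and 71 lower in V1 (111). Genes called for 4Ca against 4Cb were 92 after quantile normalization and 14 with this pair fitted alone. Genes lower in V1 were 208 within the control set of V1, and genes higher in V1 were 21 with poly-A controls as a covariate (from 12). Leaving out 1 animal gave 10 (99C018) to 38 (98C096) calls for magnocellular against koniocellular layers, 0 (99C018; 683 at an unadjusted p under 0.05) to 17 (CR5C1) for koniocellular against parvocellular, and 58 (99C018) to 157 (018G) for 4Ca against 4Cb.

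With probe sets averaged, SLC12A1 was at 1.59 for magnocellular against parvocellular and 1.04 against koniocellular layers, 1.53 against cortex and 1.84 against hippocampus, 0.97 for the range over layers, 0.90 for layer 2 and -0.55 for deep against upper layers; EBF1 was at 1.17 against parvocellular layers, 1.80 against cortex, 2.15 against hippocampus and 0.56 for the range over areas. The second probe sets enter these means, as described above. SPON2 in V1 was at -0.92 after quantile normalization, -0.86 with poly-A controls and -0.89 within the control set. Leaving out 1 animal gave ranges of -1.12 to -0.98 for ANO3 in 4C, -1.12 to -0.98 for SLC12A1 in deep layers, 0.96 to 1.34, 0.995 to 1.397 and 0.96 to 1.13 for the area ranges of ANO3, SPON2 and EBF1, and -1.17 to -0.81 for SPON2 in V1. For the other settings the cause was not tested. No called value changed direction under the alternatives run. By Spearman's rho, 0, 0, 2 and 2 of the 5 nearest genes of SLC12A1, ANO3, SPON2 and EBF1 stayed among the nearest 5. Dim levels, as of SLC12A1 outside the magnocellular layers and cortical layer 2, limit what can be read from them.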

Other observations

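The 9 control arrays labelled as hippocampal CA3 held levels unlike those of the 4 experimental CA3 arrays. SPON2 was at 7.53 to 7.93 on these controls and at 6.43 to 6.78 on the experimental CA3 arrays, EBF1 at 5.69 to 6.42 against 4.47 to 5.15, ANO3 at 10.64 to 10.79 against 11.05 to 11.47, and SLC12A1 at 3.46 to 4.53 against 3.22 to 3.33. Over 10300 genes, centred on the region groups, the mean of these controls had its highest r with S1 layer 4 (0.499) among the 57 groups, and Hippocampus CA3 stood at place 49 (r = -0.181); its r with the 3 controls labelled MT was 0.715. On the 15 whole brain pool controls EBF1 was at 7.61 ± 0.16 (SD), above the mean of every region group but the magnocellular layers, while ANO3 was at 9.98, SPON2 at 7.33 and SLC12A1 at 3.40.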
